A study of Mus musculus with 6 samples.

Results

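The genes described here encode the enzymes that build triglyceride in the liver: Gpam, Agpat2, Agpat3, the lipins Lpin1, Lpin2 and Lpin3, Dgat1, Dgat2 and Mogat1. They were selected by gene symbol, and all 9 had 1 probe set each among the 22203 probe sets with a symbol. The selection was made with earlier results of these data in view, among them that Lpin1 was far lower in the livers numbered 3, so differences by liver number are given as descriptions without a test. Liver RNA from HMGB2-KO mice (n = 3) and WT mice (n = 3), all C57BL/6 males aged 8 weeks, was hybridised to Clariom S mouse arrays. The title of the series speaks of liver regeneration and lipid droplets, but the labels name no surgery, other treatment, diet or time of collection for these livers, nor the tissues in which Hmgb2 was deleted. HMGB2 is a high mobility group protein that bends DNA. The livers carry the numbers 1, 2 and 3 within each genotype. Nothing in the labels says that livers of equal number belong together or that each came from its own mouse, so the p-values reflect the scatter among these 6 samples only, part of which may be technical.

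Triglyceride is assembled on a glycerol backbone. Glycerol-3-phosphate acyltransferases such as the mitochondrial enzyme encoded by Gpam attach the first fatty acid, and the acylglycerophosphate acyltransferases encoded by the Agpat genes attach the next to give phosphatidate. Lipins remove the phosphate to give diacylglycerol, and the diacylglycerol acyltransferases encoded by Dgat1 and Dgat2 add the last fatty acid. Mogat1 encodes an enzyme that reaches diacylglycerol from monoacylglycerol instead. In mouse liver, lipin 1 is also known as a nuclear coactivator that works with PGC-1alpha and PPARalpha on genes of fatty acid oxidation.

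Values are the deposited log2 values, which lie around a zero of each gene's own, so a value can be compared between arrays of the same gene but says nothing of how abundant one gene is against another. For the same reason, the labelled tissue could not be checked against the level of liver markers. The array medians were -0.04, -0.05 and -0.05 in HMGB2-KO livers 1, 2 and 3 and 0.01, 0.26 and -0.04 in WT livers 1, 2 and 3. WT liver 2 thus had the highest median, and it also held 70 values lying more than 3 log2 units below every other array, against 17 in WT liver 1 and 0 in each of the other 4. The targeted gene Hmgb2 read -0.70, -0.38 and -0.48 in HMGB2-KO livers 1, 2 and 3, against 0.48, 0.62 and 0.38 in the WT livers, a difference of -1.01 ± 0.15 (SE, n = 3 per genotype) with a limma adjusted p of 0.469. In whole liver, fewer cells of a type and less RNA per cell cannot be told apart.

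Because Lpin1 and Lpin2 varied together over the 6 livers, the stretches before their starts are shown. They come from RefSeq (GRCm38.p6), cover 250 bases before a start and are written 5′ to 3′ on the gene's strand. The table lists 1 start for Lpin1, on the minus strand at chr12:16610967-16611216, and 3 for Lpin2, on the plus strand at chr17:71183282-71183531, chr17:71183728-71183977 and chr17:71204404-71204653. Capitals mark matches, on either strand, to any of 5 motifs: the E-box CACGTG, the D-box TTATGNAA, the nuclear receptor motif AGGTCA, the glucocorticoid receptor motif AGAACA and the cyclic AMP motif TGACG.
Lpin1: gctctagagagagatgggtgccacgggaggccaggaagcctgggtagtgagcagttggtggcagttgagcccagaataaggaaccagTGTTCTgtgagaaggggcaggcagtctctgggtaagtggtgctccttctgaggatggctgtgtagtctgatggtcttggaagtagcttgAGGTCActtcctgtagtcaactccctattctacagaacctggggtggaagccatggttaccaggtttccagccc
Lpin2 start 1: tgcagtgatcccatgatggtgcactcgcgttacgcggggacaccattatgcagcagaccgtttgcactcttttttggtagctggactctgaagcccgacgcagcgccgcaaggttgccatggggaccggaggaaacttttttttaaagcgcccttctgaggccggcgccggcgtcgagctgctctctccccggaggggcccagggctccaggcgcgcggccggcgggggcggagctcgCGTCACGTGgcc
Lpin2 start 2: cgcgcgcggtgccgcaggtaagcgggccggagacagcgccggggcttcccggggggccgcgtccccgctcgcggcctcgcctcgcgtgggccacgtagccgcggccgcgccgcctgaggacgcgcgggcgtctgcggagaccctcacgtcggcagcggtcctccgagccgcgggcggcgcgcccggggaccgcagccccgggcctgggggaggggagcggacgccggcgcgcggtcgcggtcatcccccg
Lpin2 start 3: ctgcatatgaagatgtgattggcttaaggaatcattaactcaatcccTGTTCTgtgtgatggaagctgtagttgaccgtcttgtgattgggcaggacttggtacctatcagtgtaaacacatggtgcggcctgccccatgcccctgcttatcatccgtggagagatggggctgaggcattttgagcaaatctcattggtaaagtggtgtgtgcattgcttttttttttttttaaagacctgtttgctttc

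The Lpin1 stretch held AGGTCA at -74 to -69 and the glucocorticoid receptor motif, read on the other strand, at -163 to -158. The first Lpin2 stretch held CACGTG at -9 to -4, overlapping a cyclic AMP motif at -12 to -8, the second held none of the 5, and the third held the glucocorticoid receptor motif at -203 to -198. Among all 32851 listed stretches of this length, 6.02% held CACGTG, 14.0% AGGTCA, 16.1% AGAACA, 17.8% TGACG and 3.07% TTATGNAA. For 7 of the 9 genes, all but Dgat1 and Dgat2, the table listed 11 starts in all. E-boxes were found before 1 of these 11, D-boxes before 0, AGGTCA before 2, AGAACA before 3 and TGACG before 2. A match describes letters in these windows and nothing more.

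The lipins, which carry out the phosphatase step, included both the most and nearly the least variable of the 9 genes. Lpin1 read 4.12, 5.34 and 1.29 in HMGB2-KO livers 1, 2 and 3, against 3.76, 5.41 and -0.72 in WT livers 1, 2 and 3. Liver 3 was the lowest of its genotype by a wide margin in both, liver 2 was the highest in both, and the genotypes overlapped. Liver 3 lay below the mean of livers 1 and 2 by a log2 difference of -3.45 in HMGB2-KO, a 10.9-fold lower level, and of -5.31 in WT, a 39.6-fold lower level. Averaged over the genotypes, this was the fifth lowest of 22203 probe sets, and the gene's range of 6.14 over the 6 arrays compared with a median range of 0.61. Within liver number, HMGB2-KO minus WT was 0.36 in livers 1, -0.07 in livers 2 and 2.01 in livers 3. The genotypes thus lay close in the livers where Lpin1 was high, and HMGB2-KO was 4.03-fold above WT in the livers numbered 3. Each of these differences sets 1 array against 1, and nothing in the labels pairs them.

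Lpin2, whose product is the other main lipin of liver, followed the same order at a smaller scale. It read 2.18, 2.75 and -0.01 in HMGB2-KO livers 1, 2 and 3, against 1.56, 2.76 and -0.96 in WT. The livers numbered 3 were again below all 4 others. They differed from the mean of livers 1 and 2 by -2.48 (5.58-fold) within HMGB2-KO and -3.12 (8.72-fold) within WT, the ninth lowest average of all probe sets. HMGB2-KO minus WT was 0.62, -0.01 and 0.95 in livers 1, 2 and 3. A log2 unit of Lpin1 went with 0.70 units of Lpin2 over the HMGB2-KO livers and with 0.60 over the WT livers, each slope resting on 3 arrays. Over all 6 arrays the Pearson correlation of both genes was 0.99. This describes points that share arrays and a single contrast between liver 3 and the rest.

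Lpin3, a lipin better known from intestine and other tissues, stayed within a narrow band. Its values were -0.14, -0.08 and -0.08 in HMGB2-KO livers 1, 2 and 3, against 0.14, 0.09 and -0.08 in WT livers. Its range of 0.27 was smaller than that of most genes, since 93.9% of all probe sets had a range at least as large. Liver 3 differed from livers 1 and 2 by 0.03 in HMGB2-KO and -0.19 in WT, against -0.19 for the median probe set in WT. After each array's own median was subtracted, the WT difference was -0.02.

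**Figure D1:**
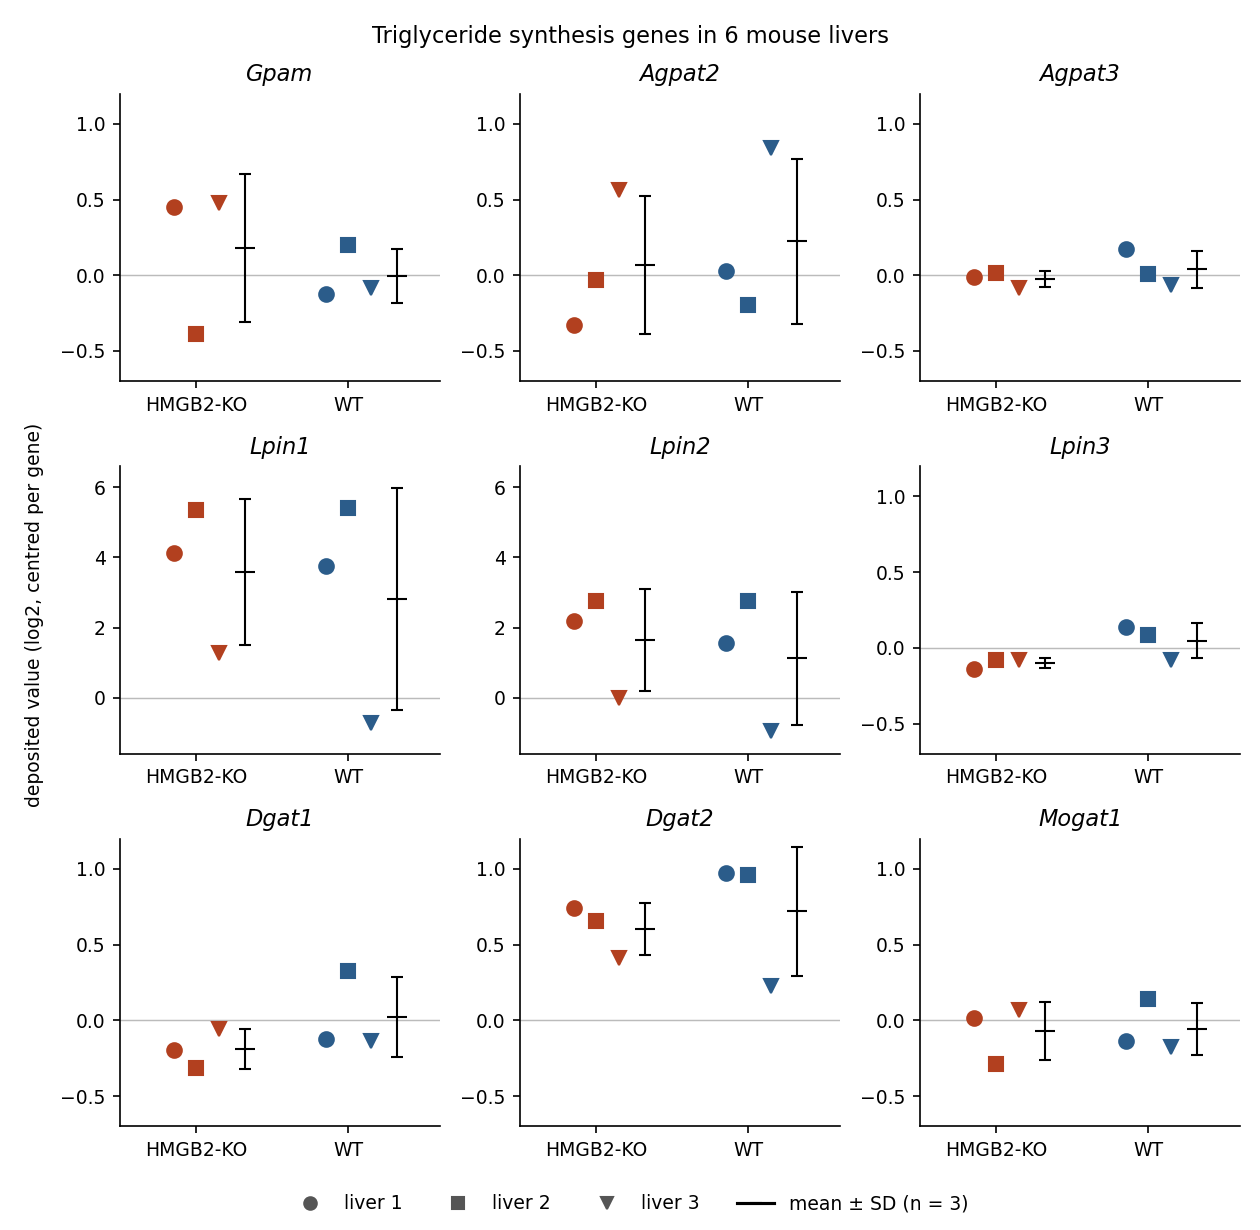
Deposited values of the 9 genes (log2, centred per gene) in the 3 HMGB2-KO livers on the left and the 3 WT livers on the right, with symbols for liver number and bars for mean ± SD. The vertical scale is wider for Lpin1 and Lpin2, where liver 3 is the lowest in both genotypes, than for the other 7 genes; Agpat2 is highest in liver 3 in both.

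Of the acyltransferases that make phosphatidate, Agpat2 ran opposite to Lpin1 and Lpin2. Agpat2, whose loss causes lipodystrophy in humans and mice, read -0.33, -0.03 and 0.56 in HMGB2-KO livers 1, 2 and 3, against 0.03, -0.20 and 0.84 in WT. Liver 3 was the highest of its genotype in both, by 0.74 (1.67-fold) in HMGB2-KO and 0.92 (1.89-fold) in WT, or by 0.75 in HMGB2-KO and 1.10 in WT after subtraction of the array medians. Over the 6 arrays its correlation with Lpin1 was -0.93. Agpat3, a paralog that acts on phospholipid precursors, read -0.01, 0.02 and -0.09 in HMGB2-KO livers against 0.17, 0.01 and -0.06 in WT. Liver 3 was the lowest in both genotypes with a difference of -0.09 in HMGB2-KO and -0.16 in WT. Once array medians were subtracted it was -0.09 in HMGB2-KO and 0.02 in WT, so the WT direction rested on the array levels.

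Gpam, the entry step, varied by liver within HMGB2-KO rather than by liver number. It read 0.45, -0.39 and 0.48 in HMGB2-KO livers 1, 2 and 3, against -0.12, 0.20 and -0.09 in WT. HMGB2-KO liver 2 was the lowest of all 6 and the other HMGB2-KO livers were the highest. HMGB2-KO minus WT was 0.58 and 0.57 in livers 1 and 3 and -0.58 in livers 2. Mogat1 had the same order within HMGB2-KO at a smaller size, with 0.02, -0.29 and 0.07 in HMGB2-KO livers against -0.13, 0.14 and -0.18 in WT. The correlation of Mogat1 with Gpam over 6 arrays was 0.86, or 0.99 relative to the array medians, a description of points that share arrays. Of 13 lipogenic genes, Fasn, Acly, Elovl5, Acacb and Scd1 had their lowest value in HMGB2-KO liver 2, and the others did not. How many of all probe sets did so was not computed, so no reading of the list follows. Elovl6 and Pnpla3 went the other way, with liver 2 the highest HMGB2-KO liver, at 1.09 and 0.28. Of the genes with the lowest value there, Acly and Acacb are named after their values were seen. The fatty acid synthase gene Fasn read -0.05, -1.51 and 0.93 in HMGB2-KO livers 1, 2 and 3, against -0.41, -0.68 and -0.03 in WT. Acly, which supplies acetyl-CoA for lipid synthesis, read 0.48, -0.95 and 0.57 in HMGB2-KO livers against -0.09, 0.27 and -0.12 in WT.

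The enzymes of the last step differed from each other. Dgat2, which esterifies mainly newly made fatty acids, read 0.74, 0.65 and 0.41 in HMGB2-KO livers 1, 2 and 3, against 0.97, 0.96 and 0.23 in WT. Liver 3 was the lowest of its genotype in both, by -0.29 (1.22-fold) in HMGB2-KO and -0.74 (1.67-fold) in WT, and its correlation with Lpin1 over the 6 arrays was 0.85. Dgat1, which is better known for re-esterifying fatty acids taken up from outside, read -0.20, -0.31 and -0.06 in HMGB2-KO livers against -0.13, 0.33 and -0.14 in WT. The high WT value came from liver 2 and was 0.07 relative to that array's median. For Dgat1, liver 3 lay 0.20 above livers 1 and 2 in HMGB2-KO and -0.24 from them in WT, or -0.06 in WT relative to the array medians.

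In counts, liver 3 was the lowest of its genotype in both genotypes for 4 of the 9 genes (Lpin1, Lpin2, Dgat2 and Agpat3), where 20.9% of all probe sets were, and the highest in both for 1 (Agpat2), where 6.75% were. It was at least 2-fold below both other livers in both genotypes for Lpin1 and Lpin2, as it was for 0.194% of all probe sets, and at least 2-fold above for 0, against 0.0766%. The median difference was -0.08 over the 9 genes and -0.09 over all probe sets. Nothing is read from these counts, since the genes were selected with this contrast in view.

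**Figure D2:**
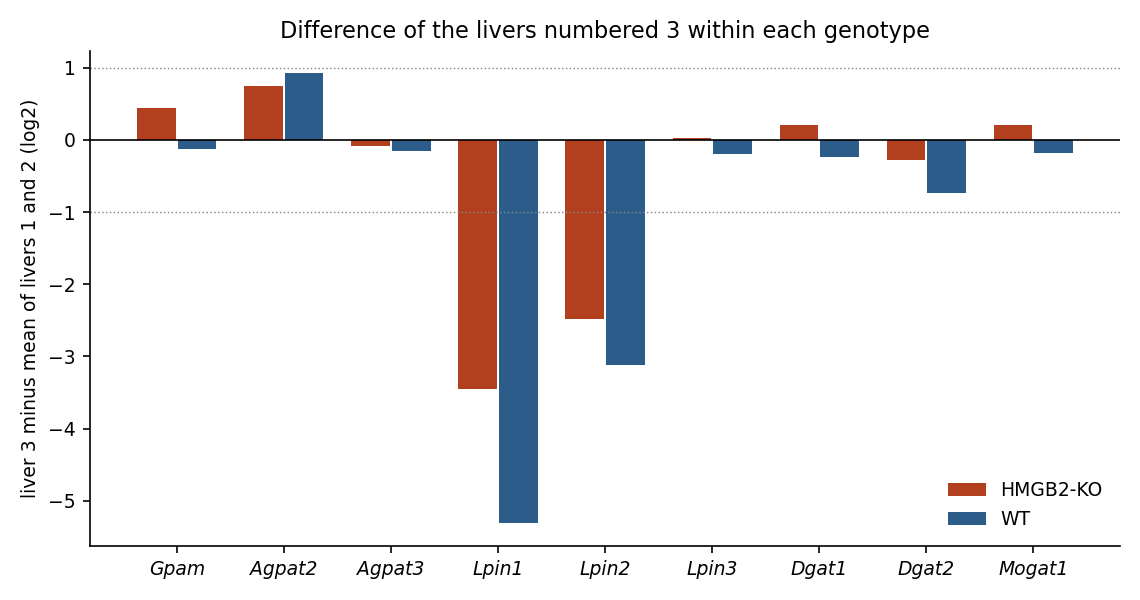
Log2 difference between liver 3 and the mean of livers 1 and 2 for each of the 9 genes, with HMGB2-KO left of WT and dotted lines at 2-fold. Each bar sets 1 array against 2 and carries no error; Lpin1 and Lpin2 pass 2-fold downward in both genotypes and Agpat2 lies above 0 in both.

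Between the genotypes, none of the 9 genes passed the threshold of the limma fit. At an adjusted p of 0.05 the fit called 0 of 22203 probe sets (0%), and an unadjusted p under 0.05 was reached by 1092 probe sets (4.92%) and by 0 of the 9 genes. Of the 1092, 16 were higher and 1076 lower in HMGB2-KO, a split that became 229 higher and 621 lower after array-median centring and 328 higher and 523 lower after quantile normalization. The HMGB2-KO livers lay wholly below the WT livers for 0 of the 9, against 10.9% of probe sets, and wholly above for 0, against 0.779%. The differences below are HMGB2-KO minus WT with the 95% confidence interval of the fit, and the median probe set lay at -0.12.

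Lpin1 averaged 3.58 ± 2.08 in HMGB2-KO and 2.81 ± 3.18 in WT (SD, n = 3 each), a difference of 0.77 with an interval of -2.94 to 4.47 (limma adjusted p 0.942). Lpin2 averaged 1.64 ± 1.46 in HMGB2-KO and 1.12 ± 1.90 in WT (SD, n = 3 each), a difference of 0.52 with an interval of -1.83 to 2.87 (limma adjusted p 0.935). A term for the livers numbered 3 could not move the estimates, since each genotype holds a single such liver. With it the intervals were -0.62 to 2.16 for Lpin1 and -0.30 to 1.34 for Lpin2 (limma adjusted p 0.812 and 0.809). Nothing is read from this narrowing, since the genes were selected with this contrast in view. Single livers set the direction: the difference was -1.001 for Lpin1 and -0.52 for Lpin2 without WT liver 3, and -0.11 and -0.04 without HMGB2-KO liver 2. Without WT liver 2, the array that stood apart, it was 2.07 for Lpin1 and 1.34 for Lpin2. After quantile normalization the Lpin1 difference was 0.43. In the livers numbered 1 and 2 alone, a choice made after seeing the data, the differences were 0.15 and 0.30.

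The other genes had narrower intervals around smaller differences. Gpam stood at 0.19 (interval -0.40 to 0.77) with a limma adjusted p of 0.905, and ranged from 0.04 without HMGB2-KO liver 3 to 0.47 without HMGB2-KO liver 2. It was 0.30 after array-median centring and 0.35 after quantile normalization. Dgat1 stood at -0.21 (interval -0.62 to 0.20, limma adjusted p 0.857), or -0.09 relative to the median probe set and -0.06 without WT liver 2. Agpat2 stood at -0.16 (interval -0.90 to 0.59), at -0.04 after array-median centring and at 0.15 without WT liver 3. Lpin3 stood at -0.15 (interval -0.46 to 0.17), or -0.03 after that centring, Dgat2 at -0.12 (interval -0.65 to 0.41), Agpat3 at -0.07 (interval -0.38 to 0.25) and Mogat1 at -0.01 (interval -0.39 to 0.37). After that centring Dgat2 was at 0.00048, Agpat3 at 0.053 and Mogat1 at 0.11. The intervals of these genes lay within 2-fold in either direction, while those of Lpin1 and Lpin2 reached past 2-fold in both. Without WT liver 2 the differences were 0.29 for Gpam, -0.37 for Agpat2, -0.08 for Agpat3, -0.12 for Lpin3, 0.002 for Dgat2 and 0.09 for Mogat1. The median of the 9 differences was -0.07, or 0.06 relative to the median probe set, with 6 of the 9 above it. It was -0.21 without WT liver 3, 0.00060 without WT liver 1 and 0.0020 without WT liver 2.

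**Figure D3:**
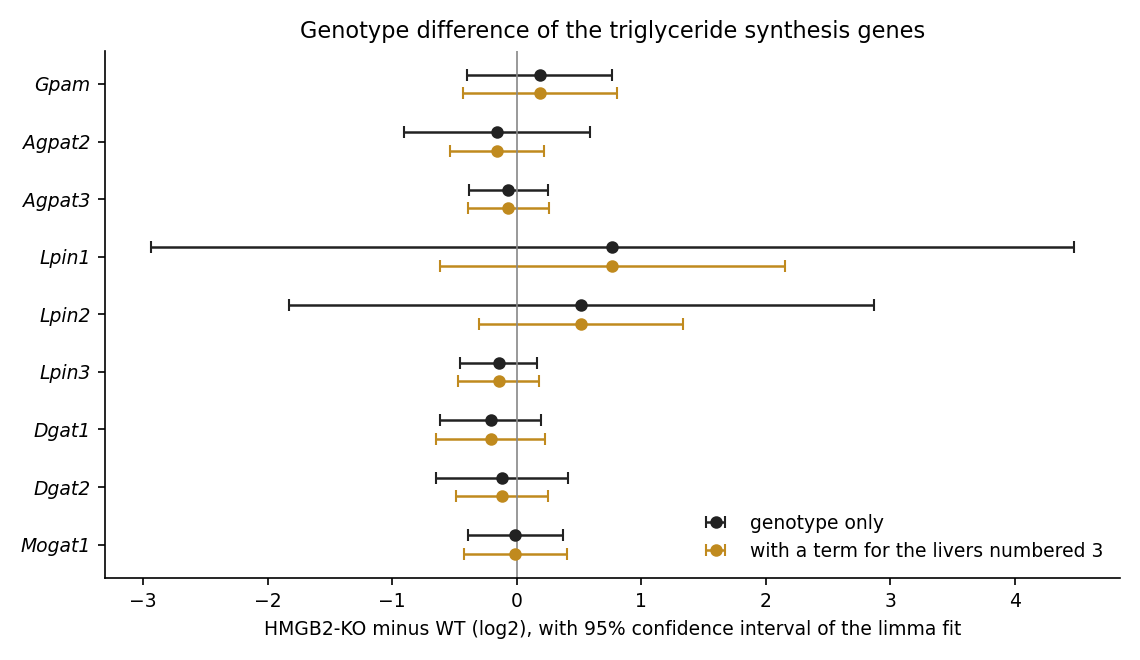
HMGB2-KO minus WT (log2) of the 9 genes with the 95% confidence interval of the limma fit, in black with genotype alone and in yellow with a term for the livers numbered 3 (n = 3 per genotype). Every interval spans 0, and those of Lpin1 and Lpin2 are the widest and narrow most with the added term. That term is the contrast known when the genes were selected.

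The rest of the glycerolipid pathway was followed in 6 lists of 59 genes, of which 58 were measured by 62 probe sets with a single symbol. limma called 0 of the 62 between the genotypes, and 2 reached an unadjusted p under 0.05, or 3.23% against 4.92% of all probe sets, both lower in HMGB2-KO. One was Tmem159, which encodes a lipid droplet assembly protein. It read 0.01, -0.01 and 0.01 in HMGB2-KO livers 1, 2 and 3, against 0.61, 0.45 and 0.69 in WT livers, a difference of -0.58 ± 0.13 (SE, limma adjusted p 0.852). The genotypes did not overlap for Tmem159, and HMGB2-KO lay wholly below WT for 10.9% of all probe sets. Relative to the median probe set its difference was -0.45. The other was 1 of the 5 probe sets of Pemt, which makes phosphatidylcholine from phosphatidylethanolamine. The 5 Pemt probe sets lay between -0.35 and -0.24, or between -0.22 and -0.12 relative to the median probe set. Of all 1092 probe sets with an unadjusted p under 0.05 in the limma fit, 1076 were lower in HMGB2-KO.

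Upstream of the 9 genes, the genes that supply glycerol 3-phosphate and acyl-CoA differed less by liver number than Lpin1 or Lpin2. Array medians were not subtracted from these differences or from those in the paragraphs that follow. By liver number, the median probe set differed by 0.005 in HMGB2-KO and -0.19 in WT. Among 6 genes for glycerol 3-phosphate supply, the glycerol channel gene Aqp9 differed between liver 3 and livers 1 and 2 by -0.21 in HMGB2-KO and -0.38 in WT. The same difference was -0.32 in HMGB2-KO and -0.19 in WT for Gpd1, the cytosolic glycerol-3-phosphate dehydrogenase gene, and 0.04 in HMGB2-KO and -0.52 in WT for the channel gene Aqp3. Between the genotypes, Aqp7, another glycerol channel gene, stood at -0.38 ± 0.19 (SE), and Gpd1l at 0.87 ± 0.48 (SE), where WT liver 2 read -1.85 against 0.00 in WT livers 1 and 3. Of the 6 acyl-CoA synthetase probe sets, that of the very long chain synthetase gene Slc27a2 showed the largest average difference by liver number, -0.53 in HMGB2-KO and -0.39 in WT. The difference was -0.20 in HMGB2-KO and -0.21 in WT for Acsl1, the main long chain synthetase gene of liver, and 0.03 in HMGB2-KO and -0.70 in WT for Acsl6.

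Other acyltransferases and phosphatases of the pathway did not share the size of the Lpin1 and Lpin2 differences, apart from Agpat1 in WT. Gpat4, an acyltransferase gene of the endoplasmic reticulum, differed between liver 3 and livers 1 and 2 by -0.60 in HMGB2-KO and -0.52 in WT. The difference was -0.04 in HMGB2-KO and -1.47 in WT for the wax synthase gene Awat1, and 0.12 in HMGB2-KO and -0.37 in WT for Gpat2. Agpat1 differed by liver number by -0.27 in HMGB2-KO and 2.75 in WT. It read -5.60 in WT liver 2 against -0.05 to 0.34 in the other 5 arrays. The WT value and the HMGB2-KO minus WT difference of 1.91 ± 1.39 (SE) thus rested on that array. Plpp3, a lipid phosphate phosphatase gene unrelated in sequence to the lipins, differed by -0.43 in HMGB2-KO and -0.89 in WT. The difference was 0.17 in HMGB2-KO and 0.16 in WT for Plpp2, and 0.06 in HMGB2-KO and -0.27 in WT for Plpp1.

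On the phospholipid side, Chka ran opposite to Lpin1. It encodes choline kinase alpha, which opens phosphatidylcholine synthesis, the branch that shares diacylglycerol with triglyceride synthesis. Chka read -1.58, -2.28 and 0.01 in HMGB2-KO livers 1, 2 and 3, against -1.13, -1.85 and -0.01 in WT livers. Liver 3 was the highest in both genotypes, by 1.94 in HMGB2-KO and 1.48 in WT, and liver 2 the lowest in both. It was the 1 probe set of the 62 in which liver 3 lay at least 2-fold above both other livers in both genotypes, and 0 lay 2-fold below. Over all probe sets these shares were 0.0766% and 0.194%. These counts carry no weight, since the lists were written with earlier results of these data known. The difference was 0.63 in HMGB2-KO and 0.60 in WT for Ept1, the ethanolamine phosphotransferase gene, and -0.56 in HMGB2-KO and -0.70 in WT for the ethanolamine kinase gene Etnk2. Among the droplet and export genes it was 0.31 in HMGB2-KO and 0.37 in WT for the carboxylesterase gene Ces1d, and 0.29 in HMGB2-KO and 0.66 in WT for Ces1g. For Tm6sf2, involved in lipoprotein lipidation, it was -0.28 in HMGB2-KO and -0.26 in WT, and HMGB2-KO minus WT stood at -0.39 ± 0.18 (SE).

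Several genes known to work with lipin 1 in the nucleus, and targets of theirs, were also lowest in liver 3 of both genotypes. Ppargc1a, which encodes PGC-1alpha, read 0.77, 0.48 and -0.32 in HMGB2-KO livers 1, 2 and 3, against -0.33, 1.18 and -0.56 in WT. Ppara, which encodes PPARalpha, read 1.42, 1.52 and 0.14 in HMGB2-KO livers against 1.33, 1.76 and 0.43 in WT livers. Its target Cpt1a, the carnitine acyltransferase gene of mitochondrial fatty acid entry, read 0.56, 0.86 and -0.86 in HMGB2-KO livers against 0.52, 0.85 and -0.54 in WT livers. Liver 3 was the lowest in both genotypes for 6 of the 8 genes of this list, against 20.9% of all probe sets. That count carries no weight, since the list was written with earlier results of these data known. Ppargc1a and Cpt1a appear again among the fasting-induced genes. Nfatc4 was among the others, with a difference of -0.03 in HMGB2-KO and 0.18 in WT.

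The probe sets whose values followed Lpin1 most closely over the 6 arrays were sought among 107 named probe sets whose range was at least 50% of that of Lpin1. By Pearson correlation they were Lpin2 (0.99), Angptl4 (0.98), Dbp (0.96), Upp2 (0.94) and Nr1d1 (0.92). Angptl4 encodes an inhibitor of lipoprotein lipase, Dbp and Nr1d1 are output and repressor genes of the circadian clock, and Upp2 encodes a uridine phosphorylase. Angptl4 read 1.74, 2.24 and -0.80 in HMGB2-KO livers 1, 2 and 3, against 1.44, 1.82 and -1.81 in WT, and Dbp read 4.38, 5.50 and 0.06 in HMGB2-KO livers against 3.66, 5.24 and 0.05 in WT livers. Upp2 read 2.60, 3.42 and 0.45 in HMGB2-KO livers against 2.09, 3.64 and 0.71 in WT livers. In WT liver 3, Lpin1 and Angptl4 were lower than in HMGB2-KO liver 3, while Dbp was level in both. At the other end stood the cell cycle inhibitor gene Cdkn1a (-0.87), Cyp26a1 (-0.78), the serum amyloid genes Saa2 and Saa1 (-0.68 each) and the histone gene Hist1h2ak (-0.64). Of these, Cyp26a1 was high in WT liver 3 alone, at 2.89 against -0.63 to -0.25 in the other 5 arrays. Saa1 read -4.74, -4.09 and -0.48 in HMGB2-KO livers against -4.94, -4.01 and -2.53 in WT livers, highest in liver 3 of both. Each correlation rests on 6 arrays that share the split by liver number and is a description.

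**Figure D4:**
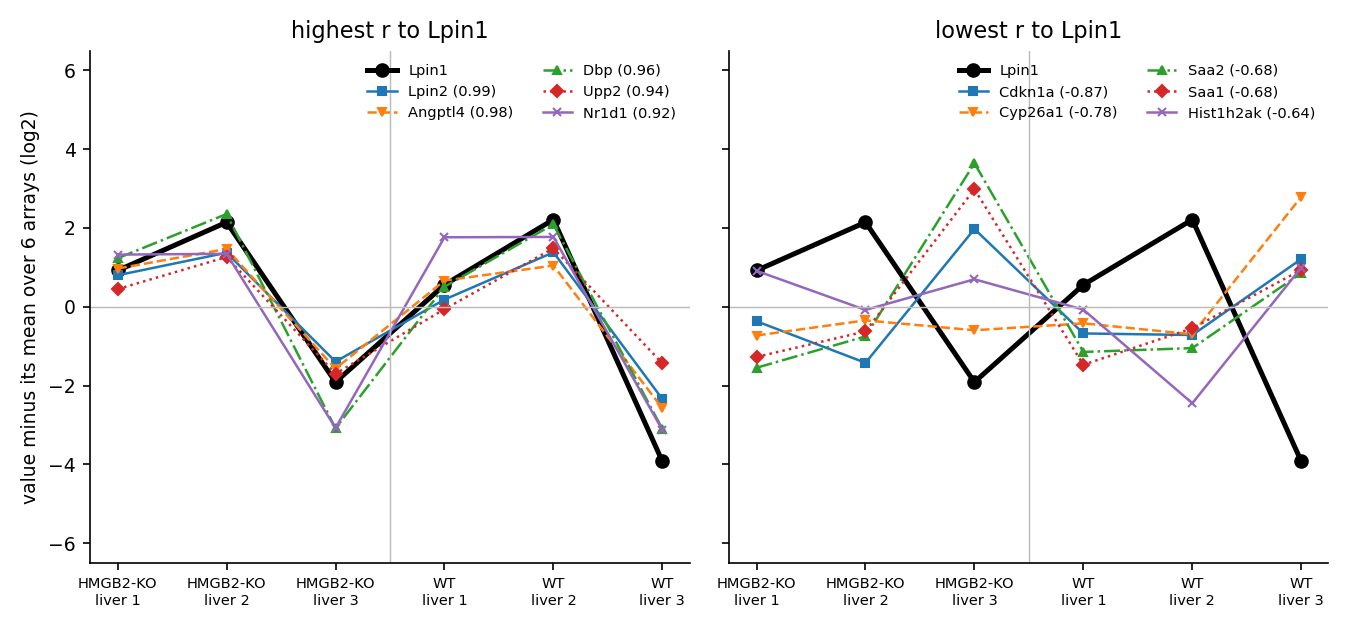
Values minus their mean over the 6 arrays (log2) for Lpin1, in black, and for the 5 probe sets with the highest (left) and the 5 with the lowest (right) Pearson correlation to it, given in the legend, with HMGB2-KO livers left of WT livers. On the left every line drops in liver 3 of both genotypes; on the right the lines differ among themselves.

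Clock and fasting genes also separated the livers numbered 3. Of 18 clock genes, liver 3 was the lowest in both genotypes for 10 and the highest for 6, against 20.9% and 6.75% of all probe sets. It was at least 2-fold below both other livers in both genotypes for 3 (Dbp, Nr1d1 and Nr1d2), against 0.194% of all probe sets. Those at least 2-fold above, against 0.0766% of all probe sets, included Arntl and Npas2, named after their values were seen. The smallest genotype p-values of the list belonged to Hlf, Bhlhe41 and Per2, with differences of -0.34 ± 0.26, -0.44 ± 0.48 and 0.15 ± 0.23 (SE). Of 13 fasting-induced genes, liver 3 was the lowest in both genotypes for 10, against 20.9% of all probe sets. It was at least 2-fold below for Angptl4, Cyp4a14 and Cpt1a, against 0.194%, and the highest in both for 1, against 6.75%. That 1 was Pdk4, a pyruvate dehydrogenase kinase gene named after its values were seen, with a difference of 0.99 in HMGB2-KO and 0.30 in WT. Cyp4a14, a fatty acid hydroxylase gene, read -1.03, -0.05 and -4.29 in HMGB2-KO livers against 0.05, -0.18 and -2.56 in WT. Igfbp1, an insulin-responsive gene, differed between liver 3 and livers 1 and 2 by -1.50 in HMGB2-KO and -2.62 in WT. HMGB2-KO minus WT was 0.34 ± 0.15 (SE) for the insulin receptor substrate gene Irs2, 0.47 ± 0.26 for the glucose-6-phosphatase gene G6pc and -0.30 ± 0.19 for Fgf21. Of 13 feeding-induced lipogenic genes, liver 3 was the lowest in both genotypes for 2 and the highest for 2, against 20.9% and 6.75% of all probe sets. The elongase gene Elovl6 differed by -0.70 in HMGB2-KO and -1.46 in WT. HMGB2-KO minus WT was -0.31 ± 0.16 (SE) for the desaturase gene Scd1 and -0.36 ± 0.36 for Elovl5. The counts of these lists carry no weight, since the lists were written with earlier results of these data known. The part of sampling time or feeding in the lipin values was not tested.

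Cell type marker lists are given as means. A mean over several genes tends to vary less than a single gene, so its size is not set against that of Lpin1 or Lpin2. The mean of 8 adipocyte markers, relative to the array medians, lay between -0.04 and 0.17 in HMGB2-KO livers and between -0.07 and 0.04 in WT livers, and was -0.04 and -0.07 in the livers numbered 3. The mean of 7 hepatocyte markers lay between -0.02 and 0.09 in HMGB2-KO livers and between -0.14 and 0.07 in WT livers, and was -0.02 in both livers numbered 3. The mean of 10 Kupffer cell and macrophage markers lay between 0.35 and 0.56 in HMGB2-KO livers and between 0.21 and 0.35 in WT livers, and was highest in liver 3 of both genotypes. The part of these markers in the lipin values was not tested. Between the genotypes, the mean of 8 sinusoidal endothelial markers lay between 0.81 and 0.89 in HMGB2-KO and between 0.66 and 0.69 in WT. That of 7 neutrophil markers lay between -0.12 and -0.08 in HMGB2-KO and between 0.01 and 0.07 in WT. For the others of the 9 marker lists, the ranges of both genotypes overlapped. Without subtraction of the array medians, the neutrophil marker Camp, named after its values were seen, was higher in HMGB2-KO (0.04) and the others lower. Without subtraction of the array medians, the endothelial markers Lyve1 (0.51), Pecam1 (0.43) and Oit3 (0.25) were higher in HMGB2-KO. The other 5 were lower, between -0.22 and -0.03, with a list median of -0.08. Relative to the median probe set, which lay at -0.12, the list median was 0.05. Stab2 and Kdr also lay above that probe set, and Fcgr2b, Clec4g and Stab1 below it. The part of these markers in the genotype differences was not tested.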

How the data were processed

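Total RNA of 6 mouse livers was hybridised to 1-colour Clariom S arrays after biotin labelling, done in duplicate per the labels' protocols. The authors deposited 2 tables with identical values, 22206 rows each, of which 22203 carry a gene symbol (832 of them several symbols). The deposited log2 values lie around 0 for each gene, per the values themselves: 89.7% of probe sets have both signs, but the median over these 6 arrays is within 0.01 of 0 for 13.8%, so the centre is not that median. No source states the log base; log2 fits their spread, and each fold depends on that choice. Neither software, background correction nor genome build is named in any source used here. No dim-probe filter was possible on centred values, and none of the 9 genes was dropped.

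HMGB2-KO was compared with WT by limma 3.58.1 in R 4.3.3 (lmFit, eBayes, genotype as the only term, Benjamini-Hochberg over all probe sets at 0.05), a procedure tested on simulated data. Groups and liver numbers came from the titles. The genes, the lists and their rules were chosen with earlier results of these data known. From each pathway list, up to 3 genes with the smallest p and up to 3 with the largest difference by liver number were named. Some genes of these lists are not reported here. Alternatives were array-median centring, quantile normalization, robust eBayes, averaged probe sets, a term for the livers numbered 3, a block for liver number, and fits without each array in turn. The number of arrays limits the precision.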

Additional observations from a re-analysis of the deposited data

Results flagged for a closer look

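In the deposited values of 3 of the 9 genes, liver 3 was the lowest WT liver and the highest HMGB2-KO liver. This compared with 18.4% of all probe sets with liver 3 at opposite ends in the genotypes. The difference between the genotypes in these contrasts was not tested, since each rests on 1 liver. Liver 3 differed from livers 1 and 2 by 0.030 in HMGB2-KO and -0.19 in WT for Lpin3, by 0.20 in HMGB2-KO and -0.24 in WT for Dgat1, and by 0.20 in HMGB2-KO and -0.18 in WT for Mogat1. Relative to the array medians the WT differences were -0.016 for Lpin3, -0.061 for Dgat1 and -0.0018 for Mogat1. On that scale liver 3 was not the lowest WT liver: liver 2 was for Lpin3, and liver 1 for Dgat1 and Mogat1. For Lpin3 the HMGB2-KO order rested on -0.0788 in liver 3 against -0.0796 in liver 2, and it turned relative to the array medians.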

How the results depend on the processing

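The counts of called probe sets (0) and of called genes among the 9 (0) were the same under every alternative run. Liver number as a replicate block left them at 0 and changed no call. Same-numbered livers correlated in their deviations from the genotype means at 0.02, 0.13 and 0.27, too little in livers 1 to count as pairs, and HMGB2-KO liver 1 correlated best with WT liver 2 (0.11). The count at an unadjusted p under 0.05 was 1272 with the block, 2124 without WT replicate 3 and 720 without HMGB2-KO replicate 2, against 1092. The Lpin1 difference by liver number ran from -5.31 to -3.45, which are its values within WT alone and within HMGB2-KO alone. The count of genes with a 2-fold difference by liver number was 2 under every alternative run. Nothing is read from either, since the genes were selected with this contrast in view.

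The median of the 9 genotype differences was 0.053 after array-median centring and 0.048 after quantile normalization, against -0.07, and ran from -0.21 to 0.0020 without single livers. Single genotype differences changed sign as follows. With arrays centred on their medians, with or without a term for the livers numbered 3, Agpat3 stood at 0.053, Dgat2 at 0.00048 and Mogat1 at 0.11. With quantile normalization they stood at 0.048, 0.0094 and 0.13. In the livers numbered 1 and 2 alone, an alternative added after seeing the data like the centred term, Gpam stood at -0.0038. Leaving out single livers gave -1.001 to 2.07 for Lpin1, -0.52 to 1.35 for Lpin2, -0.40 to 0.15 for Agpat2, -0.12 to 0.00060 for Agpat3, -0.36 to 0.0088 for Dgat2 and -0.080 to 0.098 for Mogat1. Lpin1 and Lpin2 turned to -0.11 and -0.04 without HMGB2-KO replicate 2. The cause was not tested. The planned use of the second deposited table was not run, since its values are identical.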
